A study of Mus musculus with 4 samples.

Results

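The cells described here, taken under the name Csf1r monocytes and macrophages, were 81 of 11632 kept barcodes of the mouse spleen libraries. The name does not cover all of them equally. As given below, 16 were rich in S100a8 and S100a9, with neutrophil genes in most. A further 6 held C1q, and most of the other 59 held cell cycle and progenitor granule transcripts. All 81 were chosen by their own RNA counts. A barcode was kept with at least 500 genes, at least 1000 gene UMIs and at most 10% mitochondrial UMIs, where a UMI is a molecular tag that counts each captured transcript once. A kept barcode was taken when the UMIs of Cd3d, Cd3e and Cd3g summed to 0, Csf1r and Fcer1g had at least 1 UMI each, Lyz2 had at least 2, Mpo had fewer than 5 and Klf1 fewer than 2. They were set against 339 cells without Cd3 UMIs that held at least 5 Mpo UMIs, called Mpo progenitors below, and against the 3836 other cells without Cd3 UMIs. The remaining 7376 kept barcodes held a Cd3 UMI.

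The libraries came from an allogeneic hematopoietic cell transplantation (allo-HCT) model of the graft-versus-leukemia effect. All 4 mice were lethally irradiated BALB/c recipients that carried 10000 WEHI-3B cells, a myelomonocytic leukemia line of BALB/c origin, and received allogeneic bone marrow. On day 2 they were given 200000 donor T cells (Tc). By the study's description the donors of both marrow and Tc were Havcr2fl/fl for 2 mice and Havcr2fl/fl;E8icre/+ for the other 2. Spleens were taken on day 23, and each library is 1 mouse, so p-values below measure the spread between mice. In both genotypes Havcr2, which encodes TIM-3, carries loxP sites, and E8i-driven Cre deletes it in CD8+ cells. Cells that grew from the marrow thus carry the donor genotype as well, and whether Cre acted in any of them was not tested. The samples were enriched for T cells before loading, so the cells described here are what passed that enrichment, and their number does not measure the spleen's content. The labels name a T cell isolation kit and staining for the donor haplotype, and the study's text also speaks of a sort for donor cells, so it is not settled whether cells were selected on that marker. Ages of the mice are not given in the labels used here.

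Monocytes form in the bone marrow and spleen from granulocyte-monocyte progenitors, and their survival and maturation depend on the CSF1 receptor encoded by Csf1r. Classical monocytes carry Ly6C and the chemokine receptor CCR2, leave for inflamed tissue and can become macrophages, which clear dying cells, produce complement C1q and present antigen on MHC class II. After transplantation they are among the early myeloid cells to return, and through galectin-9 and other ligands they can engage TIM-3 on T cells.

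Values over the 4 libraries are given in 1 order throughout, Havcr2fl/fl;E8icre/+ replicates 1 and 2 and then Havcr2fl/fl replicates 1 and 2. The libraries held 38386626, 31449644, 17693991 and 55045903 gene UMIs and 3431, 2551, 1213 and 4437 kept barcodes. The Csf1r cells numbered 24, 15, 27 and 15, and their summed UMIs were 463413, 363265, 769651 and 238659. Their median depth was 19170, 27106, 24295 and 17726 UMIs per cell, with a median of 4368.5, 4991, 4881 and 3946 genes. The Scrublet doublet caller marked 0 of the 81 cells, and none of them shared its barcode with another library, although 28 barcodes occurred in 2 libraries, of which 17 were kept. A level below is in CPM, a gene's UMIs per 1000000 gene UMIs, both totalled over the cells of that class and library.

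Havcr2fl/fl replicate 1 stood apart before any result was computed. It had the fewest kept barcodes, and the calprotectin gene S100a8, a neutrophil and monocyte transcript, reached 8387 CPM in its cells with a Cd3 UMI against 739.5, 446.5 and 261.8 CPM in the other libraries. In the other cells without Cd3 UMIs, S100a8 was at 4812, 7187, 23143 and 708.0 CPM. The median share of mitochondrial UMIs in the Csf1r cells was 3.57%, 3.68%, 1.39% and 3.18%, lowest in the same library.

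More cells lay next to the Csf1r threshold than next to the others. In 32 of the 81 cells Csf1r was counted exactly once, and 190 further cells met every other condition with no Csf1r UMI. These 190 had another profile than the 32. Ccr2 was at 24.9, 53.5, 5.11 and 246 CPM in the 190, against 867, 215, 479 and 557 CPM in the 32. Prtn3 was at 28.5, 67.5, 5.11 and 746 against 1197, 179, 757 and 2962 CPM. Tyrobp was at 1819, 1797, 2029 and 1969 against 1404, 2367, 2121 and 1564 CPM. By contrast, 2 of the cells had exactly 2 Lyz2 UMIs and 1 cell fell outside with 1, while 6 had 4 Mpo UMIs and 3 fell outside with 5. With any Mpo count of 5 or more, 138 cells met all other conditions. Another 9 cells missed only through 1 Cd3 UMI.

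Cd68 and Tyrobp, the label markers that the rule did not use, were both present. Cd68, a lysosomal membrane protein of mononuclear phagocytes, was at 92.8, 96.3, 116 and 113 CPM, with a UMI in 66 of the 81 cells. The adaptor of myeloid activating receptors encoded by Tyrobp was at 1262, 1495, 1631 and 1416 CPM and was seen in all 81 cells. For Cd68 the mean was 104 ± 11.6 CPM (SD, n = 4 libraries) in the Csf1r cells, 24.9 CPM in the Mpo progenitors, 2.78 CPM in the other cells without Cd3 UMIs and 7.53 CPM in cells with a Cd3 UMI. All 4 libraries lay close together for both genes. Differences in RNA between the Csf1r cells and the other classes are descriptions with no test, because the cells were chosen on RNA counts of the same barcodes.

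Classical monocyte genes were expressed in most of the 81 cells, of which 64 also held transcripts of dividing cells, as given further on. All 10 genes of the classical monocyte list had UMIs in every library, and their summed level was 14072, 11187, 14527 and 13295 CPM, against 7477, 6986, 9012 and 7767 CPM in the Mpo progenitors. Ly6c2, which encodes the Ly6C antigen, was at 3448, 3397, 3231 and 3809 CPM and had a UMI in 71 cells. Ccr2 was at 697, 741, 573 and 599 CPM, in 66 cells. The share of cells with a Ccr2 UMI was 81.5% here (Wilson 95% interval 71.7 to 88.4), 56.0% in the Mpo progenitors, 14.3% in cells with a Cd3 UMI and 1.80% in the other cells without Cd3 UMIs, at median depths of 20775, 27617, 4843 and 14763.5 UMIs. F13a1, the coagulation factor XIII subunit typical of monocytes, was at 887, 952, 981 and 829.6 CPM. The matrix genes Fn1 (fibronectin) and Vcan (versican) varied more, at 1357, 782, 699 and 369 CPM and at 425, 146, 295 and 247 CPM. Chil3, a secreted chitinase-like protein, was also uneven, at 2251, 908, 3470.4 and 2258 CPM.

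Many markers of other monocyte, macrophage and dendritic states were sparse, and a few were not. The nonclassical list summed to 313, 333, 374 and 327 CPM, led by Spn, which encodes CD43, at 166, 110.1, 109 and 134 CPM, by Itgal, the integrin chain CD11a, at 90.6, 93.6, 63.7 and 58.7 CPM, and by Pglyrp1 at 19.4, 55.1, 184 and 129.9 CPM, and the same list reached 858, 756, 963 and 615 CPM in cells with a Cd3 UMI. Of its other genes, Ace had 0 UMIs, Nr4a1 had 3, Cx3cr1 was seen in 9 cells, Treml4 in 8, Cd36 in 7 and Eno3 in 3. Adgre1, which encodes the macrophage antigen F4/80, was at 38.8, 16.5, 22.1 and 16.8 CPM in 26 cells. The spleen macrophage receptors Marco and Timd4 had 0 UMIs, Mertk was seen in 3 cells and Cd163 in 1. Hmox1 of the tissue macrophage list was spread wider, in 42 cells. Among 10 dendritic cell genes 5, 4, 3 and 1 were detected, and they summed to 21.6, 13.8, 40.3 and 4.19 CPM. The sum was highest in Havcr2fl/fl replicate 1, led there by Batf3, while the other classes of that library held 11.7 CPM (Mpo progenitors), 10.8 CPM (other cells without Cd3 UMIs) and 18.05 CPM (cells with a Cd3 UMI). Zbtb46, Xcr1, Ccr7 and Ccr9 had 0 UMIs in the Csf1r cells. At 81 cells, 0 cells with a UMI allows a share with a detected UMI of up to 3.70%, for counting error only. It does not limit the share of cells that express the gene.

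**Figure D1:**
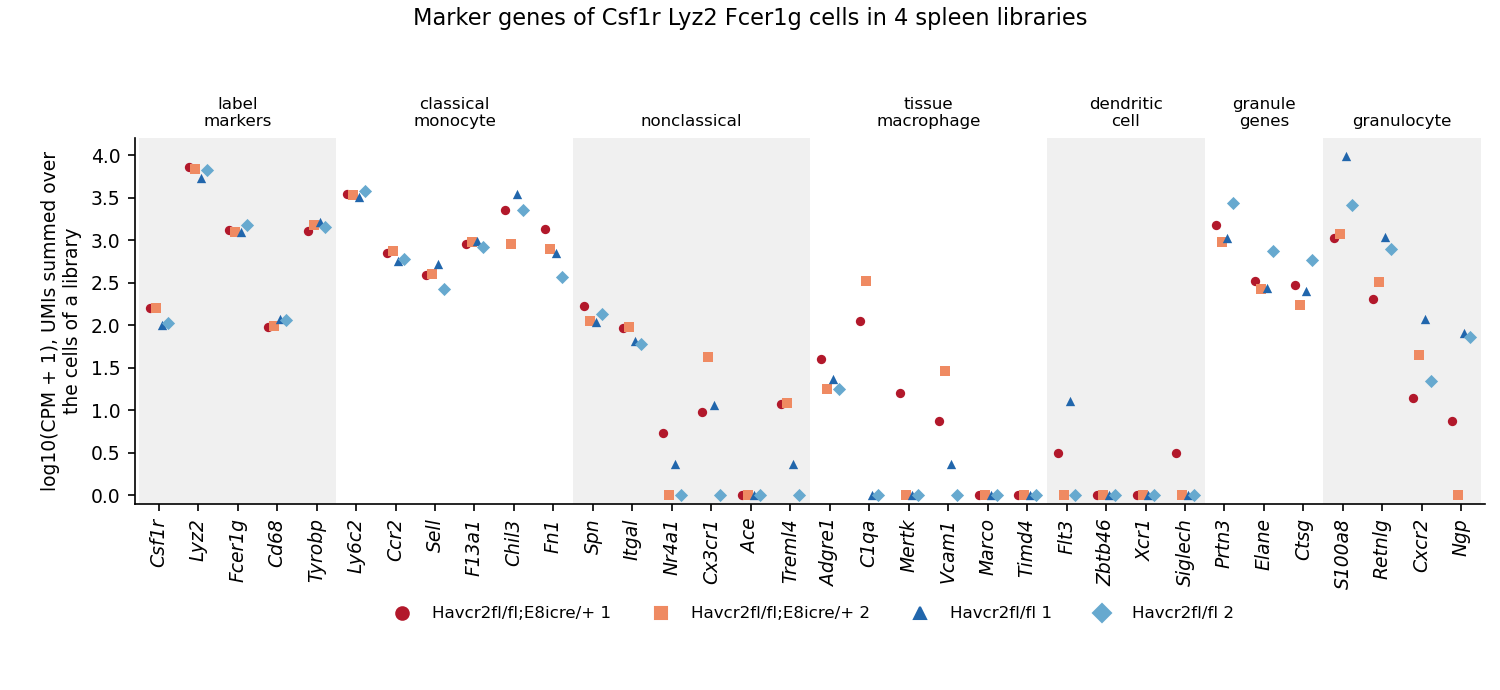
Level of marker genes on a log10(CPM + 1) axis, with 1 point per library and the genes grouped by the cell state they mark. Label markers and classical monocyte genes stand high in all 4 libraries, the nonclassical genes Spn and Itgal stand near Cd68 while Nr4a1, Cx3cr1, Ace and Treml4 are low or at 0, and C1qa is present in the Havcr2fl/fl;E8icre/+ libraries and at 0 in both Havcr2fl/fl libraries.

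The transcription factors of the lineage were expressed. Spi1, which encodes PU.1, was at 334, 369, 364 and 415 CPM in 78 cells. Irf8 was at 330.2, 405, 299 and 365 CPM and Klf4, required for classical monocytes, at 175, 374, 259 and 369 CPM. Cebpb was at 798, 619, 728 and 922 CPM in 80 cells. Kit, the stem cell factor receptor, and Gfi1, a factor of the neutrophil branch, had 0 UMIs in the Csf1r cells and mean levels of 34.1 and 10.1 CPM in the Mpo progenitors.

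Receptors and adaptors of phagocytosis were higher than in the Mpo progenitors. The list of Fc receptors and ITAM adaptors summed to 3604, 3554, 3949 and 3775 CPM, against 1882, 1979, 1673 and 1894 CPM in the progenitors, and includes Fcer1g from the rule. Fcgr1, the high-affinity IgG receptor, was at 68.0 ± 15.2 CPM (SD, n = 4) against a progenitor mean of 13.1 CPM. Lysosome genes summed to 13968, 12732, 10550.2 and 11908 CPM against 2912, 3064, 3397 and 2981 CPM, where Lyz2 of the rule was the most abundant. Ctss, a lysosomal protease of antigen processing, was at 529, 691, 648 and 469 CPM. Hmox1, which degrades heme, was at 49.6, 52.3, 65.0 and 50.3 CPM against a progenitor mean of 4.53 CPM. The efferocytosis receptor Mertk was nearly absent, as given above, and Axl was seen in 11 cells.

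Granule genes of the granulocyte-monocyte progenitor had not disappeared. Prtn3, which encodes proteinase 3, was at 1493, 941, 1054 and 2694 CPM in 66 cells, and the progenitor mean was 3870 CPM. A Prtn3 UMI was found in 81.5% of the Csf1r cells and 85.8% of the Mpo progenitors. In the other cells without Cd3 UMIs the share was 7.98%, and in the shallower cells with a Cd3 UMI 5.69%. Elane, neutrophil elastase, was at 328, 262, 272 and 742 CPM and Ctsg, cathepsin G, at 296, 173, 251 and 582 CPM. For all 3 genes Havcr2fl/fl replicate 2 was the highest library. The whole progenitor list summed to 2339, 1525, 1768 and 4441 CPM in the Csf1r cells and to 10993, 10518, 12694 and 13715 CPM in the Mpo progenitors, of which Mpo itself is part of the rule.

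Genes higher than in the Mpo progenitors were ranked by the mean log2 ratio over the 4 libraries. Only genes with a UMI in at least 10% of the Csf1r cells, and at least 10 UMIs there per library, were ranked. This left out genes of few cells, such as C1qa (6.17%). Among the ranked genes the leading ones were Retnlg, Pla2g7, Plbd1, Fn1, S100a8, Slfn1, Vcan, Wfdc17, March1, Itgam, Klra2, Ifi27l2a, Hmox1, Pira2 and Cd74. Fn1 was 4.90 ± 0.84 higher on the log2 scale (SD, n = 4), March1, a ubiquitin ligase that removes MHC class II from the surface, 4.21 ± 0.36, and Itgam, the integrin chain CD11b, 3.99 ± 0.50. Retnlg led with 9.88 although 11 of the 81 cells had a UMI for it. On the lower side stood basophil and mast cell genes. Mcpt8, a basophil protease, was 10.22 ± 0.54 lower in log2, with 3 UMIs in all 81 cells. The basophil and mast cell list summed to 12.95, 22.0, 68.9 and 29.3 CPM in the Csf1r cells and to 13009, 11249, 3293 and 12242 CPM in the Mpo progenitors, so that class also held basophil and mast cell RNA. Slfn1, Klra2 and Pira2 belong to families of similar genes, and reads could have been divided among relatives.

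Against the other cells without Cd3 UMIs, which carried much erythroid RNA, the leading genes within the same limits were Fn1, F13a1, Nrg1, Vcan, Tfec, Ms4a6c, Tifab, Ms4a6d, Klf4, Fcgr1, Trem2, Gria3, Prtn3, Ccr2 and Ms4a4c. Ms4a6c was at 935 ± 82.6 CPM (SD, n = 4) in the Csf1r cells and at a mean of 6.51 CPM there. The lowest genes relative to that class were hemoglobin and other red cell genes.

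Of the other cell types, the progenitor list is given above. T cell genes summed to 15.1, 24.8, 0 and 12.6 CPM, with 4, 4, 0 and 3 of the 12 listed genes detected, and NK cell genes to 38.8, 38.5, 33.8 and 37.7 CPM. The B cell and plasma cell list summed to 246, 193, 168 and 222 CPM, nearly all of it Ighm, the antibody mu heavy chain, at 235, 176, 156 and 205 CPM. Erythroid genes summed to 1133, 173, 140.3 and 214 CPM, and 350 of the 475 Hbb-bs UMIs lay in 1 cell of the first library. Granulocyte genes summed to 1767, 3056, 18128 and 7337 CPM and were led by S100a8 and S100a9. The sum was highest in the library that stood apart, where cells with a Cd3 UMI carried S100a8 as well. The next highest, Havcr2fl/fl replicate 2, had the lowest S100a8 of all libraries in the cells with a Cd3 UMI and in the other cells without one. Of the 620 S100a8 UMIs in its Csf1r cells, 564 lay in 1 cell. How far free RNA contributes to these sums was not tested.

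**Figure D2:**
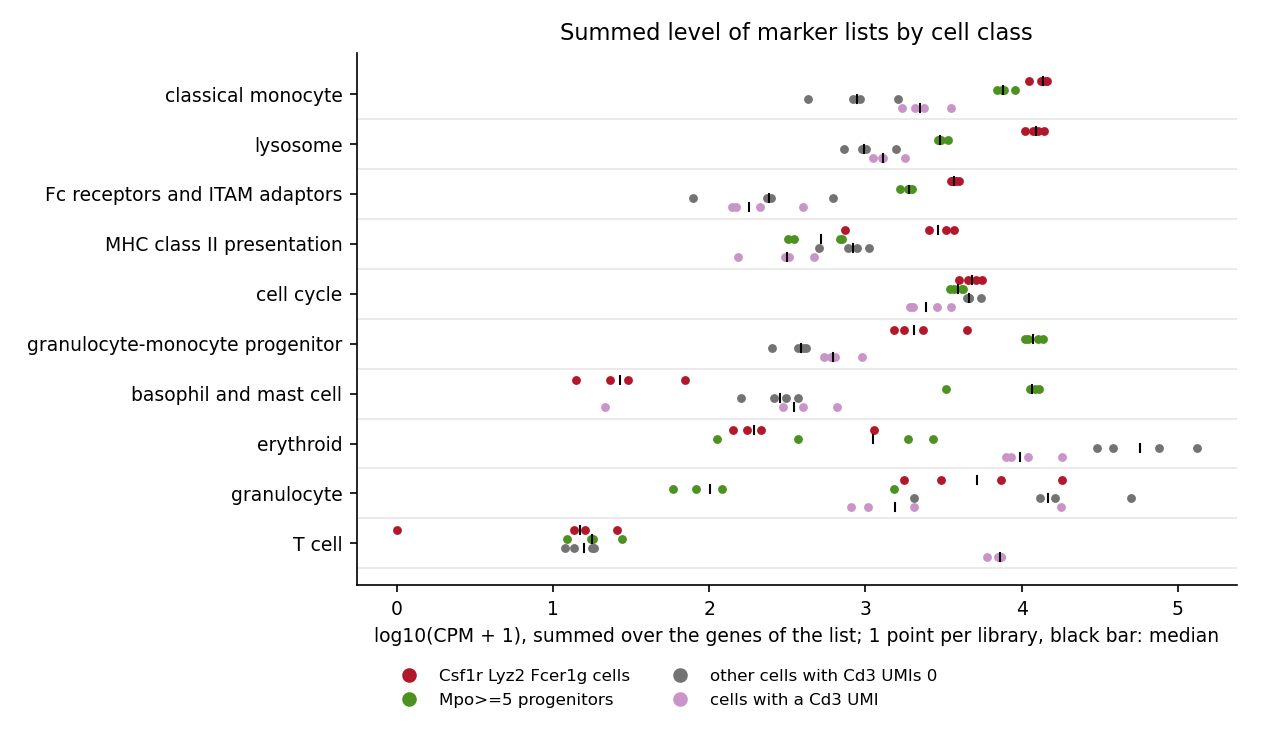
Summed level of marker lists on a log10(CPM + 1) axis by cell class, with 1 point per library and a black bar at the median of 4. Classical monocyte, lysosome and Fc receptor lists are highest in the Csf1r cells, the progenitor and basophil lists are highest in the Mpo progenitors, and the granulocyte list spreads widely among libraries. The lysosome, Fc receptor and progenitor lists hold Lyz2, Fcer1g and Mpo, which the rule used, so these differences are in part set by the choice of cells.

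The cells were not uniform. After their values had been seen, they were divided into 3 ranges that left none out and did not overlap. The smallest held 6 cells with at least 2 UMIs of C1qa, C1qb and C1qc together, a further 16 cells held at least 50 UMIs of S100a8 and S100a9 together, and 59 cells were neither. By library the C1q cells numbered 4, 2, 0 and 0, the S100a cells 3, 2, 10 and 1, and the remaining cells 17, 11, 17 and 14. These are ranges of a count and not cell types, and 7 cells lay near the C1q limit.

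The 59 remaining cells carried classical monocyte and cell cycle transcripts together. Ly6c2 reached at least 2 UMIs in 58 of them, Ccr2 was detected in 59, and 54 held at least 2 UMIs of Prtn3, Elane and Ctsg together. Mki67 and Top2a, genes of dividing cells, summed to at least 2 UMIs in 55. With progenitor granule and cell cycle transcripts in most, these cells are not shown to be mature monocytes. Their median depth was 24546 UMIs. Cxcr2, the neutrophil chemokine receptor, was seen in 0 of them and Retnlg in 1.

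The 16 S100a cells went against the label. They were shallower, with a median of 6292 UMIs, and the neutrophil genes Retnlg and Cxcr2 were detected in 10 and 11 of them. Pooled over the 16 cells, S100a8 was at 44224 CPM and Retnlg at 6352 CPM, against 197 and 0.632 CPM in the 59 remaining cells. Il1b, an inflammatory cytokine, had all of its 86 UMIs in 8 of the S100a cells. Still, Ly6c2 reached 2 UMIs in 11 of the 16 and Ccr2 was detected in 6. A Retnlg UMI was present in 13.6% of the Csf1r cells, 5.29% of the other cells without Cd3 UMIs and 1.18% of cells with a Cd3 UMI, and for S100a8 these shares were 58.0%, 12.98% and 8.18%. Scrublet called no doublet among them.

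The 6 C1q cells carried macrophage transcripts. C1q UMIs numbered 2, 41, 84, 23, 33 and 213 in cells of 18050, 6823, 11370, 2093, 1522 and 17726 total UMIs. MHC class II UMIs were 0, 184, 204, 41, 59 and 515 in the same cells, and Ly6c2 UMIs 55, 0, 0, 0, 0 and 0. The cell with 2 C1q UMIs was thus the one with monocyte Ly6c2, and the other 5 had none. Pooled, the 6 cells held Apoe, a lipid carrier of macrophages, at 2813 CPM, Cd74 at 9343 CPM and Fn1 at 7172 CPM. Csf1r was at 608 CPM, against 138 CPM in the S100a cells and 108 CPM in the rest. The rule required a Csf1r UMI in every cell. The C1q cells were also shallower than the rest, with a median of 9096.5 UMIs, so nothing is read from the Csf1r level. C1qa was detected in 6.17% of the Csf1r cells and in 0.885%, 0.808% and 0.732% of the Mpo progenitors, the other cells without Cd3 UMIs and the cells with a Cd3 UMI.

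**Figure D3:**
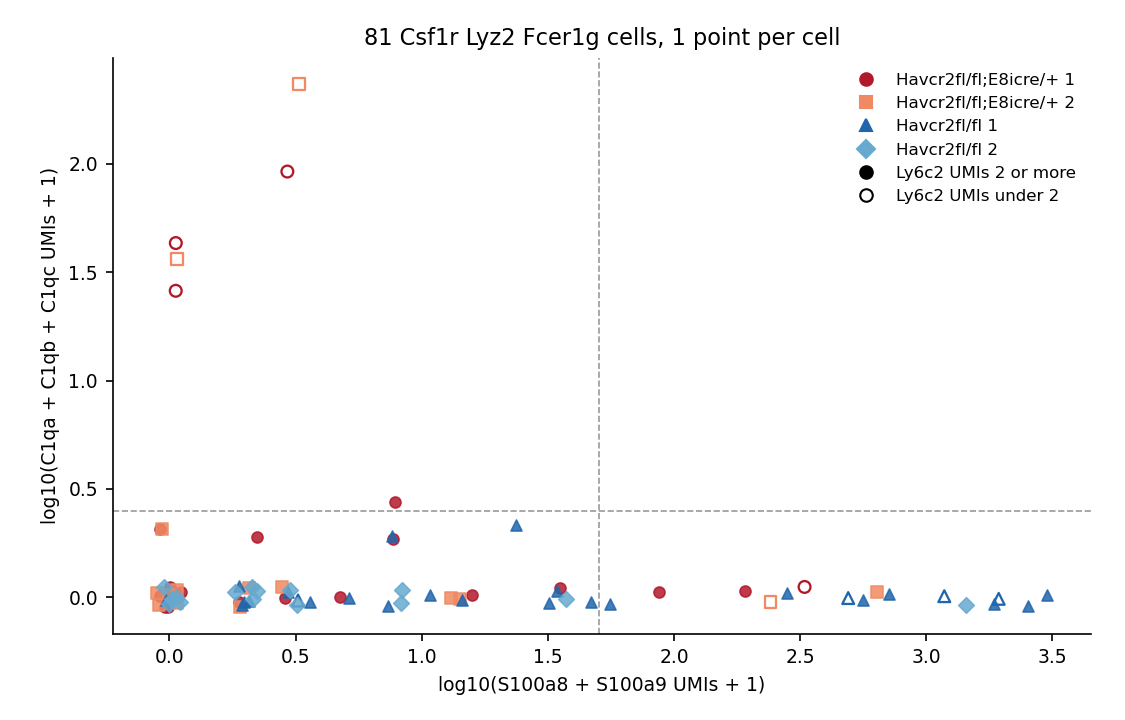
Each of the 81 cells by its summed S100a8 and S100a9 UMIs (horizontal, log10 of UMIs + 1) and its summed C1qa, C1qb and C1qc UMIs (vertical, log10 of UMIs + 1), coloured by library with slight jitter, filled where Ly6c2 had at least 2 UMIs, with dashed lines at the limits of both ranges. No cell is high on both axes, the 6 C1q cells come from the Havcr2fl/fl;E8icre/+ libraries, and 10 of the 16 S100a cells come from Havcr2fl/fl replicate 1.

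Proliferation genes were widespread. The cell cycle list summed to 3955, 5112, 4524 and 5585 CPM, and Mki67 was at 604, 886, 807 and 1006 CPM in 64 cells. All 64 cells with at least 2 Mki67 and Top2a UMIs also had at least 2 Ly6c2 UMIs. In the Mpo progenitors the list summed to 4226, 3674, 3506 and 4152 CPM.

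Antigen presentation was uneven among cells and libraries. Cd74, the MHC class II invariant chain, was at 1653, 1789, 1219 and 281 CPM in 52 cells and H2-Aa at 453, 622, 395 and 75.4 CPM in 40 cells. Both were lowest in Havcr2fl/fl replicate 2. A Cd74 UMI was seen in 64.2% of the Csf1r cells and 49.6% of the Mpo progenitors. In the other cells without Cd3 UMIs the share was 38.1%, and in cells with a Cd3 UMI, which were shallower, 18.1%. MHC class I genes were nearly level, at 6243, 5921, 6368 and 6411 CPM for the list.

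Secreted factors ranged from widespread to undetected. Tgfb1, the cytokine TGF-beta, was at 227, 228, 178 and 151 CPM in 68 cells and the complement component C3 at 296, 297, 225 and 184 CPM in 67. The chemokines Ccl6 and Ccl9 were detected in 66 and 53 cells, at 242 ± 77.8 and 116 ± 34.8 CPM (SD, n = 4). Il6, Il10, Il12b and Il1a had 0 UMIs. For other chemokines single cells decided the level. In Ccl8, 157 of 158 UMIs came from 1 cell, and 1 cell also held 76.0% of the Cxcl10 UMIs and 67.1% of those of Cxcl9, both interferon-induced ligands of CXCR3.

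The ligands of TIM-3 were measured because the study deletes that receptor in CD8+ Tc. Lgals9, which encodes galectin-9, was at 86.3, 63.3, 66.3 and 71.2 CPM in 55 cells, below the mean of 142 CPM in the Mpo progenitors, 720.4 CPM in the other cells without Cd3 UMIs and 208 CPM in cells with a Cd3 UMI. Hmgb1 was at 1275, 1726, 1823 and 1617 CPM and Ceacam1 was seen in 31 cells. Havcr2 itself had 2 UMIs in 2 cells, both of Havcr2fl/fl replicate 1, while cells with a Cd3 UMI held it at 43.1, 12.1, 31.3 and 57.3 CPM. Of the other checkpoint ligands, Vsir, which encodes VISTA, was at 162, 132, 138 and 83.8 CPM in 70 cells, Cd274, which encodes PD-L1, was seen in 12 cells and Pdcd1lg2 had 0 UMIs.

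No transcript tied the cells to the leukemia. WEHI-3B cells are known for activated Il3 and Hoxb8 genes, and both had 0 UMIs in all 81 cells and in every other class, so they separate nothing here. Xist had 0 UMIs in the Csf1r cells and in the Mpo progenitors, 4, 2, 1 and 2 in the other cells without Cd3 UMIs and 6, 17, 0 and 0 in cells with a Cd3 UMI. A UMI of a Y-linked gene was held by 70 of the 81 Csf1r cells. The antibody tag against H-2Kb, the donor's MHC class I molecule, was at medians of 3676, 3754, 5566 and 2594 UMIs per Csf1r cell. On a log scale no Csf1r cell lay more than 3 scaled median absolute deviations below the median of its library's kept barcodes. That limit used no cells known to lack H-2Kb, so it does not show that the cells came from the donor. In the Mpo progenitors the medians were 4844.5, 6387, 7931 and 2896, so the log2 ratio was -0.46 ± 0.252 (SD, n = 4), lower in 4 of 4 libraries with an exact paired permutation p of 0.12 (two-sided, adjusted 0.188), the smallest that 4 pairs can give. Against cells with a Cd3 UMI, at 1625, 1990, 2422 and 1287.5, the log2 ratio was 1.08 ± 0.136, higher in 4 of 4 libraries with the same exact p and adjusted value. Against the other cells without Cd3 UMIs it was 0.74 ± 0.690, higher in 3 of 4 libraries (exact p = 0.25, adjusted 0.25). Per 1000 gene UMIs the log2 ratio to the progenitors was 0.15 ± 0.201, higher in 2 of 4 libraries (exact p = 0.5), and that to cells with a Cd3 UMI turned to -0.85 ± 0.0575, lower in 4 of 4. That to the other cells without Cd3 UMIs was 0.09 ± 0.153, higher in 3 of 4 (exact p = 0.375), and with cells of at least 1000 genes and at most 5% mitochondrial UMIs the unscaled ratio was 0.27, higher in 2 of 4.

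The Csf1r cells made up 2.64%, 2.31%, 7.89% and 0.636% of the cells without Cd3 UMIs (Wilson 95% intervals 1.78 to 3.90, 1.41 to 3.78, 5.48 to 11.2 and 0.386 to 1.05). The Havcr2fl/fl libraries lay on either side of the Havcr2fl/fl;E8icre/+ libraries. Means were 2.48 ± 0.235% for Havcr2fl/fl;E8icre/+ and 4.27 ± 5.13% for Havcr2fl/fl (SD, n = 2 each), and the exact permutation test gave p = 1, where 2 against 2 cannot go below 0.33. These shares depend on what else passed the enrichment, since 2357 of 4437 kept barcodes of Havcr2fl/fl replicate 2 had no Cd3 UMI, against 908 of 3431, 649 of 2551 and 342 of 1213 in the others. Of all kept barcodes the Csf1r cells were 0.6995%, 0.588%, 2.23% and 0.338%. Without Havcr2fl/fl replicate 1 the difference turned from -1.79 to 1.84 percentage points. Intervals and limits cover counting error only.

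Shares of the 4 ranges of cell state did not overlap between genotypes, in a design that cannot pass a threshold. Cells with at least 2 C1q UMIs made up 16.7%, 13.3%, 0% and 0%, and those with at least 10 UMIs of H2-Aa, H2-Ab1, H2-Eb1 and Cd74 50%, 66.7%, 40.7% and 20%. At least 2 Ly6c2 UMIs were found in 83.3%, 80.0%, 85.2% and 100%, and at least 2 Mki67 and Top2a UMIs in 75.0%, 66.7%, 81.5% and 93.3%. Each gave an exact permutation p of 0.33 (two-sided, adjusted 0.33 over the 4 shares), the smallest possible. With cells thinned to 2000 UMIs, which left out 1 of the 81, the C1q shares were 12.5%, 7.14%, 0% and 0%. The cell left out was a C1q cell of 1522 UMIs in Havcr2fl/fl;E8icre/+ replicate 2. The MHC class II shares became 29.2%, 21.4%, 14.8% and 0%, and the difference of the means went from 27.96 to 17.9 percentage points. With a library left out it lay between 17.6 and 38.3, lowest without Havcr2fl/fl replicate 2 and highest without Havcr2fl/fl replicate 1. Neither overlapped, while for Ly6c2 and for the cycling genes they overlapped and the exact p was 1.

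Between genotypes few genes passed the test, and most of those that rose had their UMIs in the 6 C1q cells. UMIs were summed over the Csf1r cells of each library and tested with the quasi-likelihood test of edgeR, 2 libraries against 2, with Benjamini-Hochberg adjustment. Of 5472 genes tested, 9 rose in Havcr2fl/fl;E8icre/+ (0.164%) and 3 fell (0.0548%), the threshold being an adjusted p of 0.05. Without adjustment 227 genes were under 0.05. The median log2 change over all genes tested was -0.01. DESeq2 called 9 that rose and 2 that fell, and all 11 were among the 12. Leaving out any library moved the counts upward, to between 17 and 49 that rose and between 14 and 34 that fell. Without Havcr2fl/fl replicate 1, 49 rose and 18 fell, including all 12 genes.

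The C1q genes lie side by side on chromosome 4 (GRCm38, minus strand) and encode the chains of the molecule that starts the classical complement pathway. C1qa (chr4:136895917-136898803) was at 112, 325, 0 and 0 CPM, from 170 UMIs in 5 cells. Against a floor of 3 UMIs over the 2 Havcr2fl/fl libraries it was at least 69.1-fold higher in Havcr2fl/fl;E8icre/+ (edgeR adjusted p = 0.00822). C1qc (chr4:136889804-136893065) was at 84.2, 184, 0 and 0 CPM, at least 43.1-fold higher (edgeR adjusted p = 0.00766). C1qb (chr4:136880129-136886187) was at 134, 171, 2.60 and 0 CPM, a log2 change of 6.04 ± 0.55 (SE, edgeR adjusted p = 0.00156). In all 3 genes both Havcr2fl/fl;E8icre/+ libraries lay far above both Havcr2fl/fl libraries. The 6 C1q cells held 100%, 99.1% and 96.0% of their UMIs.

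Apoe, C4b, Sdc3 and Ltc4s also rose, with most of their UMIs in the same cells. Apoe (chr7:19696109-19699188) was at 119, 306, 3.90 and 4.19 CPM, a log2 change of 5.59 ± 0.66 (SE, edgeR adjusted p = 0.0068), with 95.3% of its UMIs in the C1q cells. For C4b, a complement component whose close copy on the same chromosome could share its reads, the levels were 104, 66.1, 9.10 and 0 CPM and the log2 change 3.57 ± 0.56 (edgeR adjusted p = 0.0318), with 81.01% there. Sdc3, a heparan sulfate proteoglycan, was at 77.7, 107, 10.4 and 8.38 CPM, a log2 change of 3.14 ± 0.44 (edgeR adjusted p = 0.0159), with 77.6% there. Ltc4s, the leukotriene C4 synthase, had 33 UMIs in 3 cells of the Havcr2fl/fl;E8icre/+ libraries and 0 elsewhere. This was 13.4-fold above a floor of 3 UMIs (edgeR adjusted p = 0.0318), and with so few cells it is no lower limit. Without Havcr2fl/fl replicate 1 the log2 change was 8.76 for C1qb and 7.94 for C4b, where the library left had 0 UMIs of either gene, so that the fitted size depends on the prior count. Ltc4s was not called without Havcr2fl/fl;E8icre/+ replicate 2. Its fitted log2 change, over 0 UMIs in Havcr2fl/fl, lay between 6.85 and 7.41 with a library left out. Ltc4s was called in 12 of 17 alternatives, C4b and Sdc3 in 14 of 17 each. Apoe was called in 16 of 17, and not with no Csf1r UMI required. Thus 7 of the 9 genes that rose had over 75% of their UMIs in the 6 C1q cells. Without those cells, 1 gene rose, Xlr.

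Xlr and Gm42031 also rose, with UMIs spread over more cells. Xlr (chrX:53777118-53797706), of the X-linked lymphocyte-regulated family, was at 84.2, 143, 0 and 0 CPM, from 91 UMIs in 13 and 10 cells of the Havcr2fl/fl;E8icre/+ libraries. Its pooled level there was 37.0-fold above a floor of 3 UMIs in Havcr2fl/fl (edgeR adjusted p = 0.0068), and 4.40% of its UMIs were in the C1q cells. Gm42031 (chr8:85125872-85132289), a predicted gene, was at 106, 168, 29.9 and 20.95 CPM, a log2 change of 2.27 ± 0.38 (SE, edgeR adjusted p = 0.0392), with UMIs in 17, 12, 12 and 4 cells. Without the C1q cells Xlr was still called and Gm42031 was not (edgeR adjusted p = 0.0895). Xlr has near-identical relatives, so that its reads could have been divided among them.

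The Xlr difference was not particular to the Csf1r cells. In all kept barcodes, Havcr2fl/fl;E8icre/+ replicates 1 and 2 held 1027 Xlr UMIs in 436 of 3431 cells (12.7%) and 1037 in 332 of 2551 cells (13.01%). The Havcr2fl/fl libraries held 0 in 5650 cells, which allows a share with a detected UMI of up to 0.0531%. The pooled level in Havcr2fl/fl;E8icre/+ was 702-fold above a floor of 3 UMIs in Havcr2fl/fl. In the Mpo progenitors Xlr was at 67.6 and 80.5 CPM in the Havcr2fl/fl;E8icre/+ libraries (edgeR adjusted p = 0.00214), in the other cells without Cd3 UMIs at 26.4 and 37.7 CPM, and in cells with a Cd3 UMI at 19.9 and 22.7 CPM. Gm42031 also rose in the progenitors, by 2.32 on the log2 scale (edgeR adjusted p = 0.0215). The cause of these differences was not tested.

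**Figure D4:**
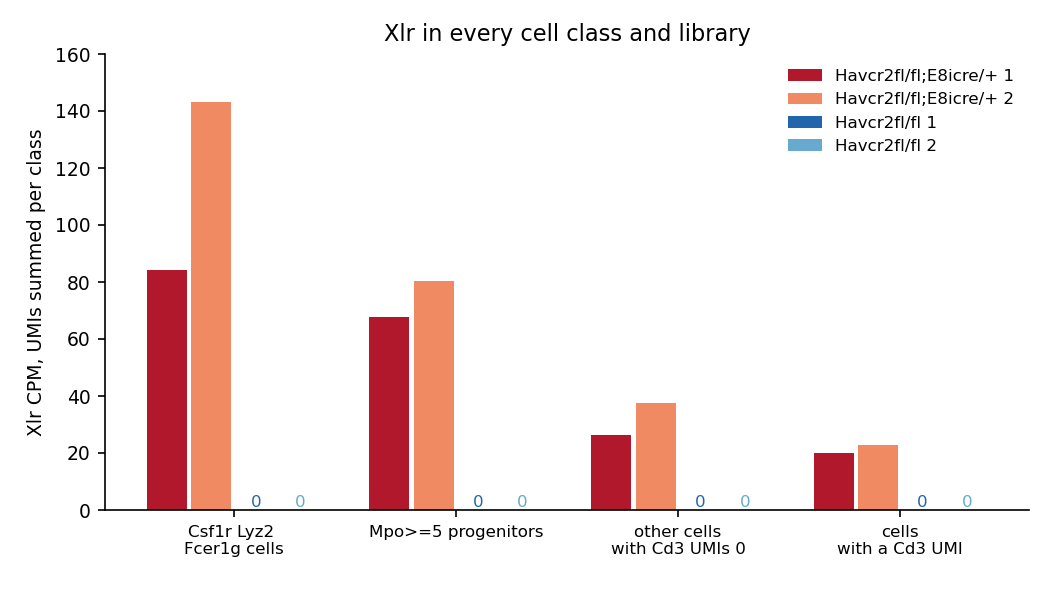
Xlr level in CPM by cell class, with 1 bar per library. Xlr is present in all 4 classes of both Havcr2fl/fl;E8icre/+ libraries and at 0 in every class of both Havcr2fl/fl libraries.

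The 3 genes that fell were neutrophil granule and secretory genes, and most of their UMIs were in the S100a cells. Lcn2, the iron-sequestering lipocalin 2, was at 62.6, 8.26, 388 and 394 CPM in 39 cells, a log2 change of -3.41 ± 0.49 (SE, edgeR adjusted p = 0.0159). Retnlg was at 203, 322, 1094 and 788 CPM, from 1, 2, 7 and 1 cells, a log2 change of -1.88 ± 0.31 (edgeR adjusted p = 0.0392). Ngp, neutrophilic granule protein, was at 6.47, 0, 80.6 and 71.2 CPM, a log2 change of -4.36 ± 0.62 (edgeR adjusted p = 0.0159), from 4 cells of which 1 held 75.6% of the UMIs. The S100a cells held 72.0%, 99.9% and 98.8% of the UMIs of Lcn2, Retnlg and Ngp, and without those cells 0 genes fell. Pglyrp1, a peptidoglycan recognition protein of granules, had a log2 difference of -2.21 ± 0.42 (edgeR adjusted p = 0.107) and S100a9 of -2.54 ± 0.50 (edgeR adjusted p = 0.1251), so neither passed, although they were called in 6 and 7 of 17 alternatives. Without Havcr2fl/fl replicate 1 the log2 changes of Lcn2, Retnlg and Ngp were -3.38, -1.58 and -4.18, and all 3 fell. Without Havcr2fl/fl;E8icre/+ replicate 1 they were -5.53, -1.57 and -8.14, with 0 Ngp UMIs in the library left, and Retnlg was not called (edgeR adjusted p = 0.0993). Retnlg was called in 10 of 17 alternatives, Lcn2 in 14 of 18 and Ngp in 15 of 17. Lcn2 was not called by DESeq2 (adjusted p = 0.793). Ngp, Retnlg and S100a9 belong to the granulocyte list, which was highest in Havcr2fl/fl replicate 1 among cells with a Cd3 UMI and among the other cells without one. In the Mpo progenitors it was highest in Havcr2fl/fl;E8icre/+ replicate 1, where S100a9 was at 539, 4.39, 14.9 and 9.48 CPM and Ngp at 173, 1.46, 2.13 and 0 CPM. With no Csf1r UMI required, which admits the 190 further cells of lower Ccr2, 0 genes fell and the Ngp difference was 0.51.

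**Figure D5:**
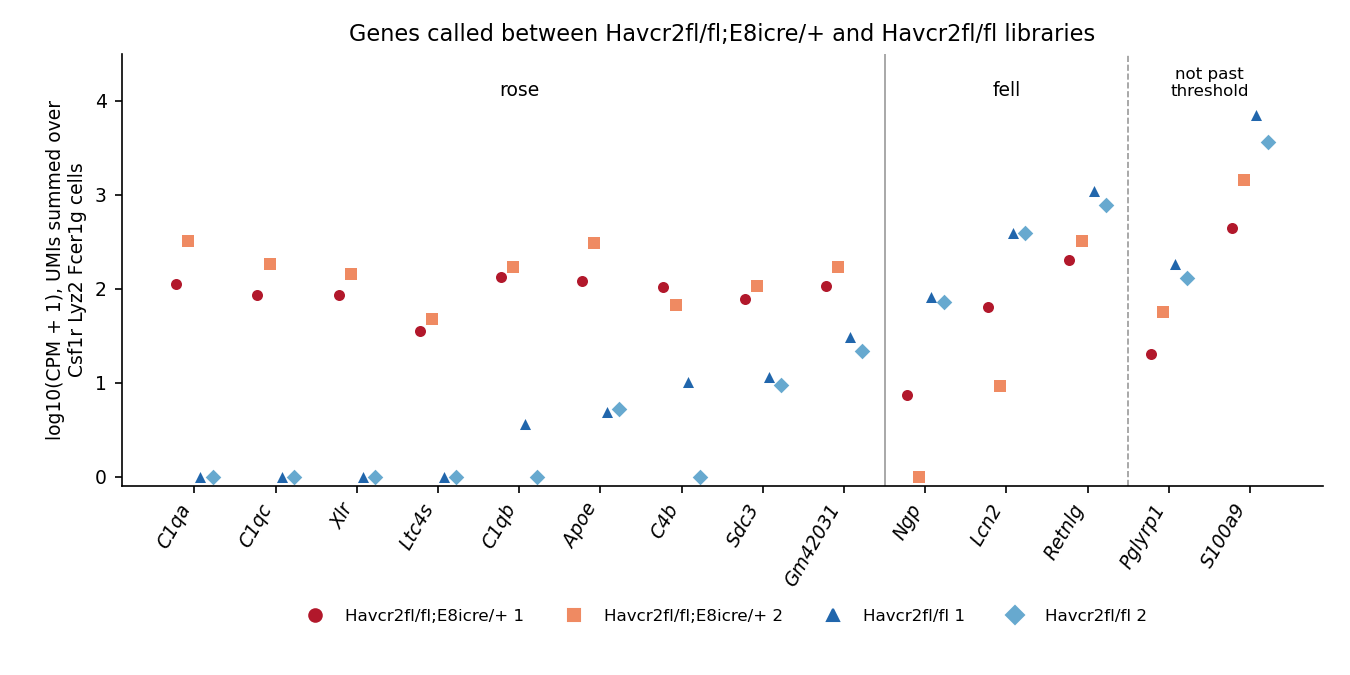
Level of the 12 called genes, and of Pglyrp1 and S100a9 that did not pass, in the Csf1r cells on a log10(CPM + 1) axis, with 1 point per library. In each gene both Havcr2fl/fl;E8icre/+ points lie on the same side of both Havcr2fl/fl points. The genes were picked by small p on these same values, so this separation is in part set by the choice.

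The C1q and S100a ranges were set on those genes after their values had been seen, so the share of C1q, S100a8 and S100a9 UMIs that they hold, and the loss of the C1q calls without them, are fixed by that choice. Of 17 tissue macrophage genes 6 had enough counts to be tested and 4 rose (C1qa, C1qb, C1qc and Apoe), where 0.164% of all genes did. Without the C1q cells 1 gene of that list was left to test, at -1.24, so the list entered the test mainly through those cells and nothing is read from its count. Of 11 complement genes 8 were tested and 3 rose, the C1q genes themselves, and 5 were left to test without the C1q cells. C4b was not on that list. Of 10 granulocyte genes 6 were tested and 2 fell (Ngp and Retnlg), where 0.0548% of all genes did, and all 6 were below 0. Without the S100a cells 1 of them was left to test, at -1.12, so this count too depends on the cells that hold the UMIs. With Havcr2fl/fl replicate 1 left out, 7 granulocyte genes were tested, of which 5 fell and 2 were above 0, where 0.311% of all genes fell in that fit. With another library left out 7 or 8 were tested and 0 were above 0.

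MHC class II genes were higher in Havcr2fl/fl;E8icre/+ by their values without passing the test. All 7 tested lay above 0, as did 2649 of all 5472, with a median log2 difference of 1.05. Of the 7, 2 had an unadjusted p under 0.05, as did 136 of all genes that lay above 0. Neither edgeR nor DESeq2 called any of the 7. The size rested on Havcr2fl/fl replicate 2, where H2-Aa and Cd74 were lowest, since the median was 0.39 without that library. Without Havcr2fl/fl replicate 1 it was 2.71 and 4 of the 7 genes rose, where 0.846% of all genes did in that fit. The median was 0.35 without the C1q cells and 0.90 without the S100a cells. Classical monocyte genes had a median of -0.04 over 10 genes, MHC class I genes -0.12 over 10, interferon gamma response genes 0.18 over 14, type I interferon response genes 0.06 over 7, lysosome genes 0.21 over 13 and TIM-3 and its ligands -0.01 over 4, with 0 genes called in each by either tool and 3, 1, 1, 1, 2 and 0 genes at an unadjusted p under 0.05. For the cell cycle list 11 of 14 genes lay below 0, as did 2823 of all 5472, with a median of -0.20, 2 at an unadjusted p under 0.05 and 0 called by either tool. With a library left out the median ranged from -0.47 to 0.02 for the cell cycle list, the latter without Havcr2fl/fl replicate 2, from -0.46 to 0.94 for interferon gamma response genes and from -0.62 to 0.95 for type I interferon response genes, both highest without Havcr2fl/fl replicate 1. It ranged from -0.13 to 0.19 for classical monocyte genes, the latter without Havcr2fl/fl replicate 1. For lysosome genes it was 0.07 to 0.31, lowest without Havcr2fl/fl;E8icre/+ replicate 1. The granulocyte-monocyte progenitor list had a median of -0.75, with 5 of 7 genes below 0, 1 at an unadjusted p under 0.05 and 0 called by either tool. With Havcr2fl/fl replicate 1 left out its median was -1.30, and with Havcr2fl/fl replicate 2 left out it was 0.06.

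Whether the genotype difference in the Csf1r cells itself differed from that in the Mpo progenitors was tested as an interaction over both classes of the 4 libraries. Of 9192 genes, 16 passed (0.174%). Apoe was among them, with a difference of 3.53 ± 0.66 between the log2 changes (SE, edgeR adjusted p = 0.00373), and so was Lcn2, at -2.73 ± 0.32 (edgeR adjusted p = 8.84e-07). For C1qb, C4b, Sdc3 and Ltc4s it did not pass (edgeR adjusted p = 1, 0.470, 1 and 0.741). For Xlr, C1qa and C1qc, with 0 UMIs in both classes of both Havcr2fl/fl libraries, the interaction could not be estimated.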

How the data were processed

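The authors deposited filtered count matrices of gene and H-2Kb antibody tag UMIs per barcode, made per the labels with Cell Ranger 6.1.2 on mm10 from 10x 3′ libraries of spleen cells, 1 library per mouse. Barcodes were filtered as given above. Doublets were scored with Scrublet (scanpy 1.11.5, Python 3.11.15), at a rate of 0.8% per 1000 barcodes, and not removed. UMIs of 32285 genes were summed per library and class and tested with edgeR 4.0.16 in R 4.3.3 (TMM, filterByExpr, glmQLFTest), checked on simulated counts, with DESeq2 1.42.0 as an alternative. The interaction fit held library as a block. The SE of an edgeR log2 change was taken as its size divided by the square root of the test's F statistic. It is thus approximate, above all where counts in 1 genotype are few. Ratios between classes had 0.5 UMIs added. Positions are those of GENCODE on GRCm38.

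Named genes were the label markers, genes of 31 lists (312 of 314 listed genes had a row), called genes whose genotypes did not overlap at a mean of at least 20 CPM, with the smallest p up to 5 where fewer passed, and the 15 largest ratios between classes. The higher ratios were ranked within the limits given above. The members and lists were chosen with earlier results of these data known. Alternatives were normalization, filters, doublets, stricter cells, other thresholds of the rule, a replicate block and each library left out. Values of some genes are not reported here.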

Additional observations from a re-analysis of the deposited data

Results flagged for a closer look

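In 16 genes the genotype difference in the Csf1r cells parted from that in the Mpo progenitors by the interaction test of edgeR. Each value below is the log2 change in the Csf1r cells minus that in the progenitors, with its adjusted p. No explanation was weighed.

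Ngp was at -10.78 (edgeR adjusted p = 1.07e-13), with 82 UMIs in the Csf1r cells, 75.6% of them in 1 cell, and 616 of the progenitor UMIs in Havcr2fl/fl;E8icre/+ replicate 1 against 4, 4 and 0 in the other libraries. Camp was at -8.73 (edgeR adjusted p = 0.000357), with 699 progenitor UMIs in that same library against 1, 3 and 2. S100a8 was at -3.47 (edgeR adjusted p = 0.000828) and S100a9 at -5.73 (edgeR adjusted p = 0.0134), with 2132 and 1924 progenitor UMIs there. Lcn2 was at -2.73 (edgeR adjusted p = 8.84e-07) and Pglyrp1 at -2.69 (edgeR adjusted p = 4.65e-05). Without that library the difference was 0.19 for Camp, -0.55 for S100a9 (edgeR adjusted p = 0.972), -1.28 for S100a8 and -10.17 for Ngp (edgeR adjusted p = 0.212), and without Havcr2fl/fl;E8icre/+ replicate 2 those of S100a8 and S100a9 were -5.36 and -8.99. Pglyrp1 was at -3.77 without the latter library and Lcn2 at -4.20 without the former.

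Interferon-induced chemokines were 2 of the 16. Cxcl9 was at -4.74 (edgeR adjusted p = 0.000108) and Cxcl10 at -5.28 (edgeR adjusted p = 0.0202), with 67.1% and 76.0% of their UMIs in the Csf1r cells in 1 cell each of Havcr2fl/fl replicate 1, and without that library Cxcl10 was at 6.13 and Cxcl9 at -1.18 (edgeR adjusted p = 1 for both). Without Havcr2fl/fl;E8icre/+ replicate 2 Cxcl9 was at -1.96 (edgeR adjusted p = 0.785).

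For the other genes, Igkc, an antibody light chain, was at -5.84 (edgeR adjusted p = 3.02e-05), with 11778 progenitor UMIs in Havcr2fl/fl;E8icre/+ replicate 2, and at -0.63 without that library (edgeR adjusted p = 0.974). Hdc, histidine decarboxylase of basophils and mast cells, was at -4.22 (edgeR adjusted p = 7.46e-05) and Ifitm1 at -2.18 (edgeR adjusted p = 0.00139). Apoe was at 3.53 (edgeR adjusted p = 0.00373). Srgn, a granule proteoglycan, was at -1.08 (edgeR adjusted p = 0.00582), Lmo4 at -1.43 (edgeR adjusted p = 0.0128) and H1f0, a linker histone, at -1.98 (edgeR adjusted p = 0.0196). Gm42418, a transcript that overlaps ribosomal RNA, was at 0.75 (edgeR adjusted p = 0.00999). Without Havcr2fl/fl replicate 1 the differences were -1.87 for Hdc, -0.85 for Ifitm1, -0.68 for Srgn, -0.53 for Lmo4 and 0.44 for Gm42418, and none of these 5 passed (edgeR adjusted p = 1 each). With a library left out H1f0 was at -2.05 to -1.92 and passed only without Havcr2fl/fl replicate 2.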

How the results depend on the processing

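Depth was limited by the number of cells, 15 to 27 per library, and counts of called genes moved more than their directions. The 9 genes that rose and 3 that fell became 40 and 25 with no filter on low counts, 9 and 6 with cells of at least 1000 genes and at most 5% mitochondrial UMIs, 9 and 6 with at least 5 Lyz2 UMIs, 5 and 0 with no Csf1r UMI required, 1 and 2 without the C1q cells and 8 and 0 without the S100a cells. The last 3 settings were chosen after seeing the data, as was at least 1 Lyz2 UMI. Each library left out gave 17 to 49 that rose and 14 to 34 that fell, with the lone library of a genotype assumed to vary like the others. The interaction counted 32 genes in place of 16 with no filter and 13 to 60 with a library left out. Xlr was called in 18 of 18 alternatives. The difference in the share of Csf1r cells ranged from -5.42 to 1.84 percentage points of the cells without Cd3 UMIs and from -1.58 to 0.306 of kept barcodes with a library left out. Per 1000 gene UMIs, the tag ratios were 0.15 to the Mpo progenitors and -0.85 to cells with a Cd3 UMI. With no Csf1r UMI required Ngp was at 0.51 and S100a9 at 0.15. With a library left out, the interaction of Camp ranged from -13.51 to 0.19 and that of Cxcl10 from -8.58 to 6.13. The cause of these changes was not tested beyond the cells or libraries left out. With the replicate number as a block, 5 genes rose (C1qa, C1qb, C1qc, Apoe and Xlr) and 0 fell by edgeR, with 170 at an unadjusted p under 0.05. The numbers do not pair the mice, since deviations of same-numbered libraries correlated at -0.06 over 5472 genes. Among the values that answer a comparison 79 kept their direction and side, 21 moved and 4 turned, and among single genes 274 kept them, 46 lost the call, 13 gained it and 4 turned.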
